A study of Mus musculus with 13 samples.

Results

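The 10 genes described here encode the glucose transporter Slc2a1 and 9 enzymes of glycolysis, namely Hk2, Gpi1, Aldoa, Tpi1, Gapdh, Pgk1, Eno1, Pkm and Ldha. They were chosen by gene symbol, and all 10 were found among the 24470 genes of the count table. Glycolysis splits glucose into pyruvate in the cytosol and yields ATP and NADH, and lactate dehydrogenase then turns pyruvate into lactate and restores NAD+. Mouse embryonic stem cells are known for a high rate of glycolysis. Several of the genes are textbook targets of the transcription factors HIF1 and MYC, which bind DNA at cores of the type ACGTG and CACGTG.

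All libraries came from E14, an embryonic stem cell line of the mouse on a 129/Ola background, grown with fetal bovine serum, leukemia inhibitory factor and sodium pyruvate; the labels name no genotype or treatment that differs between groups. In the low-input protocol, accessible DNA was cut by the transposase Tn5 in permeabilised cells, and messenger RNA was then captured from the same lysate, so that an ATAC and an mRNA library share their cells. Experiment 1 used 10000 and 20000 cells and experiment 2, on another day, 5000, 10000 and 20000 cells, which gave 5 mRNA and 5 ATAC libraries. Omni-ATAC, the benchmark protocol, was run once each with 5000, 10000 and 50000 cells, without mRNA. Nothing in the labels says that libraries of an experiment came from separate cultures, so p-values measure the spread between these libraries, which may be technical, and days are not replicated.

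Total counts ran from 13727122 to 20426252 per mRNA library. Levels are given as CPM, each count scaled to the total of its library; they are not scaled to transcript length and are compared within a gene and not between genes. In bulk libraries fewer cells of a type and less RNA per cell cannot be told apart. The 10 stem cell markers summed to 3526 to 3681 CPM, of which Dppa5a alone gave 1469 to 1673 CPM. By the edgeR test between experiments described below, 2 of the 10 were higher in experiment 2 (Klf4, log2 fold change 0.42, and Zfp42, 0.38). A further 1 was lower (Utf1, -0.57) and 7 were not called, where 5.75% of all genes tested were called higher and 6.76% lower. Without any 1 of the 4 fitted libraries the calls on Klf4 (edgeR adjusted p = 0.0623 to 0.223) and Zfp42 (0.0628 to 0.171) were lost, and that on Utf1 was kept. Fibroblast markers summed to 34.6 and 36.9 CPM in experiment 1 and 10.5 to 12.2 CPM in experiment 2. Thy1 gave 29.2 and 33.9 CPM of it in experiment 1 and 6.77 to 9.78 CPM in experiment 2, and it was called lower (log2 fold change -2.19, edgeR adjusted p = 6.75e-08); without Thy1 the sum was 2.45 to 5.39 CPM, and Col3a1 and Lum were at 0. Primitive endoderm markers summed to 13.8 and 10.2 CPM in experiment 1 against 1.67 to 2.74 CPM in experiment 2, and Dab2 and Gata6 among them were called lower. The call on Gata6 was lost without the library from 10000 cells of experiment 1 (edgeR adjusted p = 0.333) or of experiment 2 (0.143). Neural markers summed to 5.54 and 7.23 CPM in experiment 1 and to 11.45, 15.6 and 12.3 CPM in experiment 2. Among them Pax6 was called higher. It gave at most 0.146 CPM of the sum in experiment 1 and 5.55, 6.96 and 3.52 CPM in experiment 2. Of the other neural markers Sox1 was higher without overlap, Neurod1 lower without overlap, and Nes overlapped. None of these was called. Mesendoderm markers summed to 0.583 to 3.68 CPM and trophoblast markers to 4.01 to 7.58 CPM. The part of other cell types in the differences between experiments was not tested. Among whole chromosomes, 8, 15 and Y were shifted most between experiments. Their median log2 differences were 0.46, -0.29 and 8.49, the last over only 6 genes tested. None of the 10 glycolysis genes lies on these chromosomes, but Zfp42 lies on chromosome 8, and its 0.38 is below that chromosome's median.

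Experiment 2 was compared with experiment 1 to ask how far the genes reproduced on another day. Of the 10 genes only Tpi1 changed by the test, with a mean of 264.8 ± 13.1 CPM (SD, n = 2) in experiment 1 and 423.5 ± 34.9 CPM (SD, n = 2) in the fitted libraries of experiment 2, and the other 9 differed by at most 0.33 on the log2 scale. Among the genes around them, Ldhb, which encodes the other common lactate dehydrogenase subunit, rose by 1.96 on that scale, and Slc16a3, a lactate exporter, rose by 1.27. Txnip and Arrdc4, which restrain glucose uptake, and Fbp2, an enzyme of the reverse pathway, fell. So did Pfkm and Ldhc, isozymes of glycolysis itself, Bsg, a partner of lactate transporters, and the regulator Myc, while its relative Mycn rose. The test was edgeR's quasi-likelihood test on the 4 libraries from 10000 and 20000 cells, with Benjamini-Hochberg adjustment over 12523 genes and a threshold of 0.05. By it 1 of 10 members was called, against 12.5% of all genes tested (5.75% higher and 6.76% lower).

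Tpi1 (mm10 chromosome 6, 124810592 to 124814296, minus strand) encodes triosephosphate isomerase, which interconverts the 3-carbon sugars that aldolase releases. It had 256 and 274 CPM in the experiment 1 libraries from 10000 and 20000 cells, and 371, 399 and 448 CPM in the experiment 2 libraries from 5000, 10000 and 20000 cells. All 3 libraries of experiment 2, including the one outside the fit, lay above both of experiment 1. The log2 fold change was 0.68 ± 0.12 (SE, edgeR adjusted p = 0.000255). At 10000 cells the log2 ratio of CPM + 1 was 0.64 and at 20000 cells 0.71. Leaving out any 1 of the 4 libraries gave 0.61 to 0.77, with the call kept each time. The median of the 571 genes tested on chromosome 6 was 0.00.

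Gapdh (chromosome 6, 125161852 to 125166467, minus strand), the dehydrogenase that makes the first NADH of the pathway, stood closest to the threshold. It had 1867 and 1416 CPM in experiment 1 and 2277, 2019 and 2109 CPM in experiment 2, in the order given for Tpi1. The groups did not overlap, but the library from 20000 cells of experiment 1 was far below its partner. The log2 fold change was 0.33 ± 0.12 (edgeR adjusted p = 0.0647), so no call was made. Without the experiment 1 library from 10000 cells it was 0.55 (edgeR adjusted p = 0.0108), and with the experiment 2 library from 5000 cells added it was 0.42 (edgeR adjusted p = 0.0328). Without the experiment 1 library from 20000 cells it was 0.16 (edgeR adjusted p = 0.55). Gapdh has many near-identical pseudogenes, and how reads with several matches were counted is not given in the sources used here, so its values are uncertain.

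**Figure D1:**
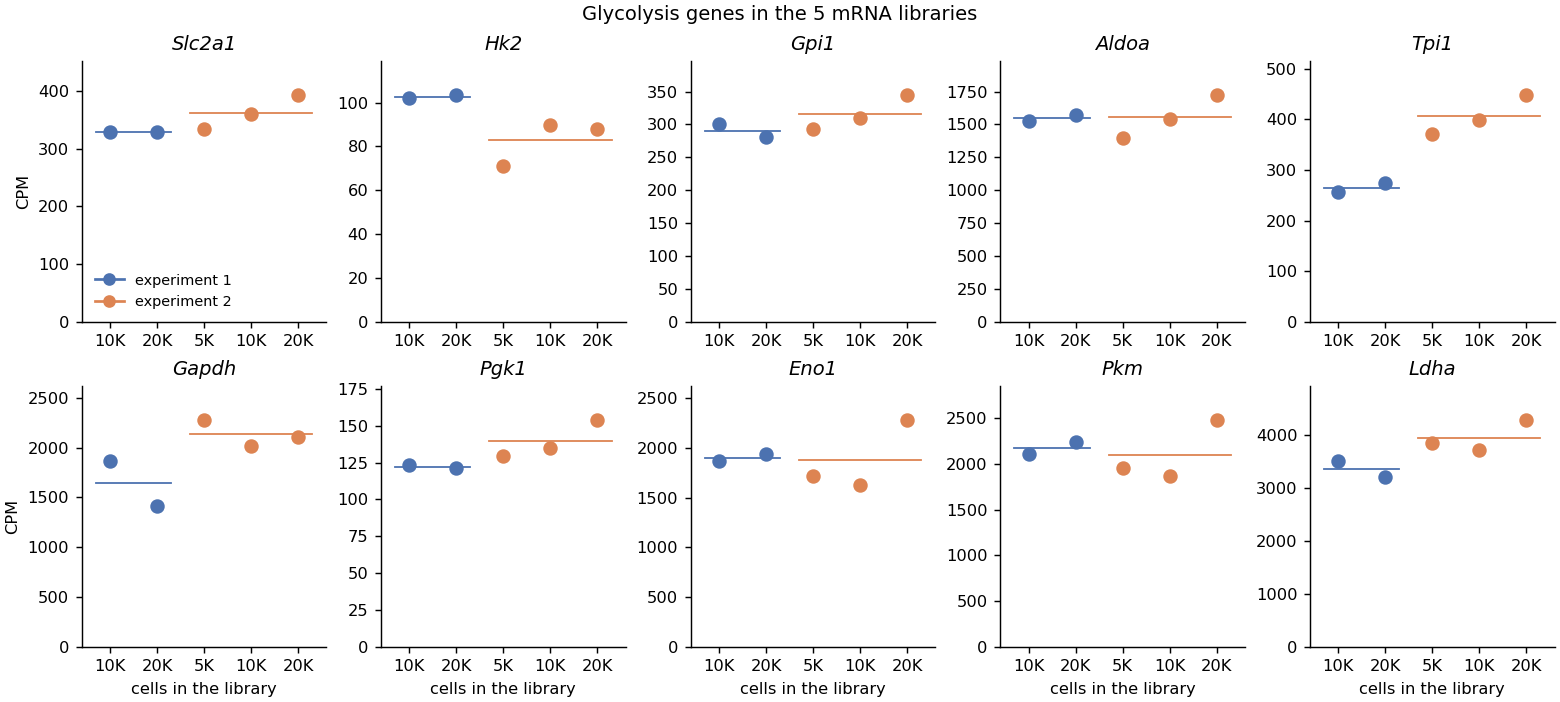
CPM of the 10 genes on the y axis (from 0) in each mRNA library on the x axis (10K is 10000 cells), blue for experiment 1 and orange for experiment 2; lines are the means of an experiment. Tpi1 shows the clearest step, from 256 and 274 CPM to 371 CPM and more, while Eno1 and Pkm overlap and Hk2 lies lower in experiment 2.

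The steps before Tpi1, from uptake to the aldolase, were read next. Slc2a1 (chromosome 4, 119108745 to 119137330, plus strand), the glucose transporter GLUT1, had 329 CPM in both experiment 1 libraries and 334, 360 and 393 CPM in experiment 2. Experiment 2 was higher without overlap, the library from 5000 cells only just, and no call was made (log2 fold change 0.20 ± 0.11, edgeR adjusted p = 0.294). Hk2 (chromosome 6, 82725025 to 82774454, minus strand), the hexokinase that traps glucose as its phosphate, was the one gene lower in all experiment 2 libraries. It had 102 and 103 CPM in experiment 1 against 71.2, 89.6 and 88.1 CPM in experiment 2, with the lowest value at 5000 cells (log2 fold change -0.21 ± 0.13 in the fitted libraries, edgeR adjusted p = 0.329). Gpi1 (chromosome 7, 34201327 to 34230336, minus strand), the isomerase that makes fructose 6-phosphate, had 300.0 and 281 CPM against 293, 309 and 345 CPM, with overlap. Aldoa (chromosome 7, 126795234 to 126800447, minus strand), the aldolase, had 1529 and 1573 CPM against 1394, 1543 and 1723 CPM, and the experiment 2 values spanned those of experiment 1.

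In the steps after Gapdh differences were small. Pgk1 (chromosome X, 106187100 to 106203699, plus strand), which makes the first ATP, had 123 and 121 CPM against 130, 135 and 154 CPM. Its groups were without overlap, but it was not called (0.24 ± 0.13, edgeR adjusted p = 0.227). With 1 of the fitted libraries left out its change ran from 0.16 to 0.34. Eno1 (chromosome 4, 150237197 to 150248873, plus strand), the enolase, had 1871 and 1938 CPM against 1723, 1625 and 2282 CPM. Pkm (chromosome 9, 59656368 to 59679375, plus strand), the pyruvate kinase, followed it closely with 2109 and 2234 against 1952, 1866 and 2478 CPM. For both, experiment 2 held the lowest and the highest library, and the fitted changes were 0.04 ± 0.12 and 0.00 ± 0.12. Ldha (chromosome 7, 46845804 to 46855627, plus strand), the lactate dehydrogenase subunit that favours lactate, had 3503 and 3198 CPM against 3842, 3721 and 4277 CPM. Its groups did not overlap, and the change missed the threshold (0.26 ± 0.10, edgeR adjusted p = 0.109); without the experiment 2 library from 10000 cells it was 0.36 (edgeR adjusted p = 0.0175). Without the experiment 2 library from 20000 cells it was 0.17 (edgeR adjusted p = 0.331), and without the experiment 1 library from 20000 cells 0.21 (0.391). Eno1b, a near-identical copy that may share reads with Eno1, had 140 to 236 CPM and was not called.

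Across the 10 genes the median log2 fold change was 0.18, with 8 of 10 above 0, against a median of 0.00 over all genes tested. In 5 of 10 genes all libraries of experiment 2 lay above both of experiment 1 (17.7% of genes tested), in 1 they lay below (23.9%), and 4 overlapped. In all, 6 of 10 members did not overlap, against 41.5% of genes tested. The library from 20000 cells of experiment 2 stood out: 8 of 10 genes had their highest CPM there, against 21.6% of genes tested; this count was made once the values were known. The 10 genes summed to 14300 CPM (1.43% of counts) in it and to 11470 to 12390 CPM in the other 4 libraries. Without it the fitted changes of Eno1 and Pkm were -0.22 and -0.20 (edgeR adjusted p = 0.224 and 0.245), and that of Tpi1 was 0.61 (edgeR adjusted p = 0.00346).

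**Figure D2:**
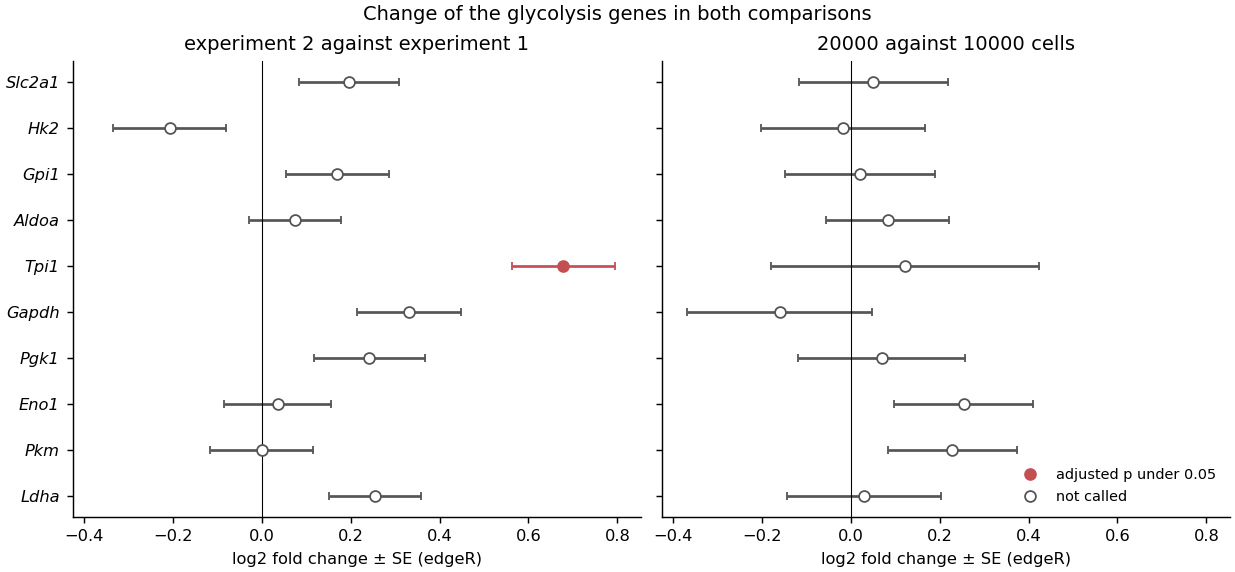
Fitted log2 fold change (x axis, points) with its standard error (bars) for each gene, between experiments on the left and between cell numbers on the right; filled red marks an adjusted p under 0.05. Tpi1 at 0.68 is the one filled point, and the cell number panel has none.

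The libraries from 20000 and 10000 cells were set against each other to ask whether these genes depended on the input. None of the 10 was called, and 0 had an unadjusted p under 0.05, by the edgeR fit without regard to the pairing by experiment. Over all 12523 genes 0% were called by that fit, with 101 at an unadjusted p under 0.05. The largest fitted differences were in Eno1 (0.25 ± 0.16) and Pkm (0.23 ± 0.15), both higher in the library from 20000 cells in each experiment. With 1 library left out they ran from 0.14 to 0.38 for Eno1 and from 0.16 to 0.32 for Pkm. For Eno1 the log2 ratio of CPM + 1 was 0.05 in experiment 1 and 0.49 in experiment 2, and for Pkm 0.08 and 0.41. Gapdh went from 1867 to 1416 CPM in experiment 1 and from 2019 to 2109 CPM in experiment 2 (fitted -0.16 ± 0.21). For the 10 genes the median was 0.06, against 0.00 over all genes. DESeq2 and the fit with the experiment as a replicate block also called 0 of the 10. That block fit, which takes up the pairing, called 4 of all genes tested, with 566 at an unadjusted p under 0.05. Its estimated spread was 17.5%, against 32% without the block, so the fit without it was the more cautious. With the block Eno1 was 0.25 ± 0.13 (edgeR unadjusted p = 0.0502) and Pkm 0.23 ± 0.13 (0.0742).

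With 5000 cells there was 1 mRNA library, and it was set beside the mean of the other experiment 2 libraries without a test. Of the 10 genes 9 were lower with 5000 cells, and the log2 ratios of CPM + 1 ran from -0.32 for Hk2 to 0.14 for Gapdh, with a median of -0.16. The median over all genes tested was -0.13, and 65% of them were below 0, so the genes lay near the rest. None differed 2-fold, against 3.18% of genes tested.

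The remaining isozymes and steps of glycolysis were 21 genes, of which 15 had enough counts to be tested; 2 rose and 2 fell between experiments, with a median of 0.09, where 5.75% of all genes tested were called higher and 6.76% lower and the median was 0.00. With 1 library left out 3 to 5 were called. Ldhb, the lactate dehydrogenase subunit that favours pyruvate, had 116 and 103 CPM in experiment 1 and 411, 397 and 454 CPM in experiment 2 (1.96 ± 0.12, edgeR adjusted p = 1.64e-10). All experiment 2 libraries lay far above both of experiment 1. Aldoc, an aldolase isozyme, rose from 11.1 and 14.5 to 20.9, 24.2 and 25.3 CPM (0.95 ± 0.20, edgeR adjusted p = 0.00266). Ldhc, the testis isozyme, fell from 6.70 and 9.64 to 1.43, 2.19 and 2.11 CPM (-1.92 ± 0.37, edgeR adjusted p = 0.000915). Pfkm, a phosphofructokinase, fell from 30.1 and 38.2 to 18.2, 21.6 and 22.0 CPM (-0.65 ± 0.18, edgeR adjusted p = 0.0171). It lies on chromosome 15, whose median was -0.29. The call was lost without the experiment 2 library from 10000 cells (edgeR adjusted p = 0.11), the experiment 1 library from 20000 cells (0.187) or the experiment 2 library from 20000 cells (0.0952).

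Ratios of counts within a library do not depend on its scaling. Per count of Ldhb there were 30.2 and 31.0 counts of Ldha in experiment 1 and 9.34, 9.37 and 9.43 in experiment 2, so that libraries of an experiment were far closer to each other than to the other experiment. Per count of Aldoc there were 138 and 108 counts of Aldoa in experiment 1 and 66.6, 63.8 and 68.2 in experiment 2. Hk2 per Hk1, a second hexokinase, gave 3.68 and 4.78 against 3.27, 4.41 and 3.52, with overlap. The ratio of Slc2a1 to Slc2a3, a glucose transporter of higher affinity, was 2.38 and 2.20 against 2.23, 1.87 and 1.98, also with overlap.

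**Figure D3:**
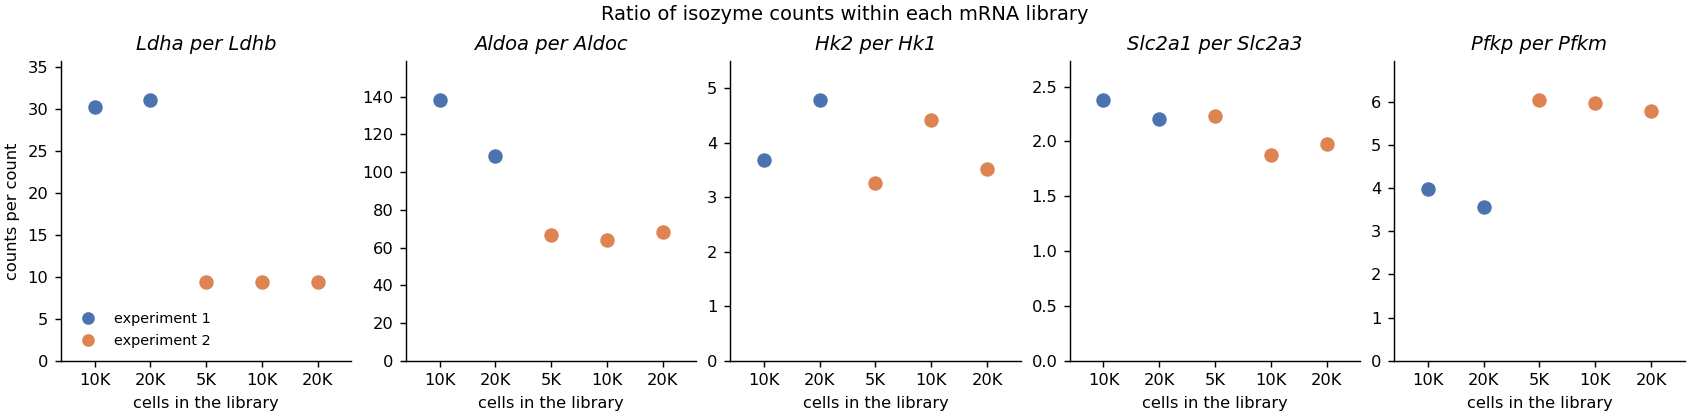
Counts of one isozyme per count of another (y axis, from 0) in each mRNA library (x axis; 10K is 10000 cells), blue for experiment 1 and orange for experiment 2. Ldha per Ldhb drops from 30.2 and 31.0 to between 9.34 and 9.43, while Hk2 per Hk1 overlaps between the experiments.

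Of the 9 genes of hexose and lactate transport 5 were tested, and 2 rose and 1 fell (5.75% and 6.76% of all genes). The 3 calls were 1 without the experiment 1 library from 10000 cells and 2 to 4 without another of the fitted libraries. Slc16a3 (MCT4), which carries lactate out of the cell, rose from 11.6 and 16.9 CPM to 28.7, 32.8 and 36.0 CPM (1.27 ± 0.20, edgeR adjusted p = 8.13e-05). Slc2a3 rose in the fitted libraries, from 138 and 149 to 192 and 199 CPM (0.44 ± 0.12, edgeR adjusted p = 0.0152). The library from 5000 cells, at 149.7 CPM, was near experiment 1, and with it added the call was lost (edgeR adjusted p = 0.0632), as it was without the experiment 1 library from 10000 cells (0.188) or the experiment 2 library from 20000 cells (0.0642). Bsg, the partner protein of lactate transporters, fell from 130 and 118 to 92.2, 85.1 and 96.2 CPM (-0.45 ± 0.13, edgeR adjusted p = 0.0213). Its call was lost without the libraries from 10000 cells of experiment 1 (edgeR adjusted p = 0.218) or experiment 2 (0.189).

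Among regulators of the pathway 7 of 7 were tested, 1 rose and 3 fell (5.75% and 6.76% of all genes), and these 4 calls held with any 1 library left out. Txnip, which promotes removal of glucose transporters from the cell surface, fell from 98.9 and 84.6 to 35.7, 37.0 and 36.1 CPM (-1.33 ± 0.15, edgeR adjusted p = 6.57e-07). Its relative Arrdc4 fell from 85.2 and 86.5 to 49.0, 49.5 and 53.6 CPM (-0.73 ± 0.14, edgeR adjusted p = 0.000645). Both groups were tight, with no library between the experiments. Myc, a transcription factor that acts on many glycolysis genes, fell from 55.2 and 44.6 to 25.0, 26.7 and 23.9 CPM (-0.98 ± 0.17, edgeR adjusted p = 0.000258). Its relative Mycn rose from 21.6 and 25.6 to 62.7, 64.9 and 60.3 CPM (1.41 ± 0.16, edgeR adjusted p = 1.14e-06). Myc lies on chromosome 15, whose median was -0.29, and Mycn on chromosome 12, whose median was 0.02.

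The list of other genes of the HIF pathway and its targets held 23 genes, of which 21 were tested; 4 rose and 2 fell (5.75% and 6.76% of all genes), with a median of 0.33 against 0.00 over all genes. The 6 calls were 2 without the experiment 2 library from 10000 cells and 4 without any other 1 of the fitted libraries. Ndrg1 rose from 6.99 and 6.83 to 13.2, 15.1 and 12.9 CPM (1.02 ± 0.25, edgeR adjusted p = 0.00792), Bnip3, a mitophagy receptor, by 0.72 ± 0.19, and Kdm3a, a histone demethylase, by 0.68 ± 0.16. Hif1a, the oxygen-regulated subunit of HIF1, rose by 0.59 ± 0.19 in the fitted libraries. Its level with 5000 cells, 19.2 CPM, lay between 17.4 and 19.6 CPM of experiment 1. The call on Hif1a was lost with that library added (edgeR adjusted p = 0.124) and without any 1 of the 4 (0.0584 to 0.278). Ddit4, a stress-induced inhibitor of mTOR, fell by 0.98 on the log2 scale (by edgeR, -0.63 without the experiment 1 library from 20000 cells, still called), and Epas1, which encodes HIF2A, fell by 0.81. Leaving out 1 library ended further calls: Ndrg1 without the experiment 2 library from 10000 cells (edgeR adjusted p = 0.116), Bnip3 without that library or the experiment 1 library from 20000 cells (0.0915 and 0.121), Kdm3a without either library from 20000 cells (0.104 and 0.0605), and Epas1 without either library from 10000 cells (0.147 and 0.237).

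In 3 adjoining pathways 1 gene each was called, of 7, 16 and 5 tested, where 12.5% of all genes were called. With 1 library left out the list of 16 had 0 to 3 calls and the others 1 each. Of 7 genes of the pentose phosphate pathway, which makes NADPH and ribose, Tkt (transketolase) rose from 472 and 497 to 575, 673 and 785 CPM (0.59 ± 0.11, edgeR adjusted p = 0.000835), and 6 were not called. Of 16 tested genes that switch flux or bring pyruvate into mitochondria, Tigar, which lowers fructose 2,6-bisphosphate, fell by 0.49 on the log2 scale (edgeR adjusted p = 0.018), a call lost with the 5000 cell library added (0.065). It was also lost without the experiment 1 library from 10000 cells (edgeR adjusted p = 0.184), the experiment 2 library from 10000 cells (0.0956) or the experiment 2 library from 20000 cells (0.0928). Of 5 tested genes of gluconeogenesis, Fbp2 (fructose bisphosphatase) fell from 10.3 and 15.8 to 0, 0.32 and 1.13 CPM, where the 0 with 5000 cells allows up to 0.179 CPM (-4.09 ± 0.42, edgeR adjusted p = 3.12e-07). Between cell numbers 0 genes of these lists were called by the edgeR fit without a block.

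**Figure D4:**
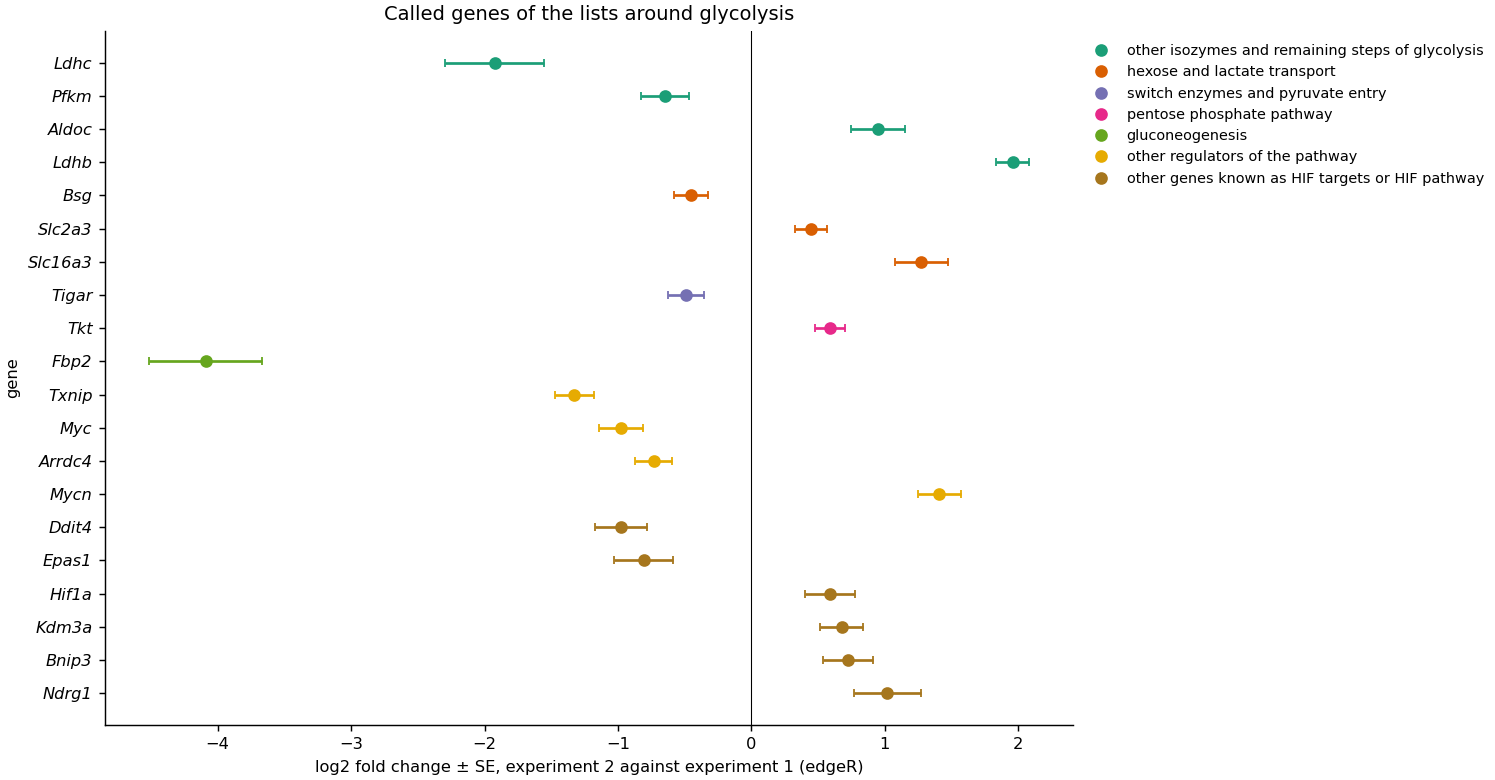
Fitted log2 fold change between experiments (x axis, points, with standard error bars) of each gene called in the lists around glycolysis (y axis), coloured by list. Ldhb, Mycn and Slc16a3 lie farthest to the right, and Fbp2 at -4.09 farthest to the left.

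The genes whose profile over the 5 libraries was most like the median of the 10 were Rack1, Rfc1 and Slc39a10, among 6414 genes that averaged 10 CPM or more. Their mean absolute difference from it in centred log2(CPM + 1) was 0.0133, 0.0166 and 0.0166. Of the 10 genes themselves Gpi1 was nearest to that median (0.0096), and Tpi1 (0.237) and Hk2 (0.206) were farthest. Rack1, a ribosomal scaffold protein, had 3873 and 3609 CPM in experiment 1 and 3704, 3919 and 4478 CPM in experiment 2.

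Open chromatin at the promoters was read from the 8 peak lists, taking a peak within 1000 bp of the start of the gene in the count table. Slc2a1, Hk2, Gapdh, Pgk1, Eno1 and Pkm had one in all 8 lists. Gpi1 had one in 4, Tpi1 and Ldha in 3 each and Aldoa in 2. Of the 1517 genes that averaged 90.8 CPM or more, the lowest level among the 10, 33.6% had a peak in all 8 lists and 18.3% in 3 or fewer. No depth or peak height is known, and the shortest intervals are 9 bp, so no limit of detection can be given for an absent peak. The promoters that the peaks bear on are shown as the bases before a RefSeq start on GRCm38.p6 (the assembly of mm10), 5′ to 3′ on the gene's strand. Capitals mark matches on either strand to the E-box CACGTG, to the HIF core in its forms ACGTG or GCGTG, to the GC box GGGCGG or to the CCAAT box. The TATA box (TATAAA) was searched too. An E-box match of this kind holds the first form of the HIF core on both strands.
Slc2a1 (chr4:119108495-119108744, plus): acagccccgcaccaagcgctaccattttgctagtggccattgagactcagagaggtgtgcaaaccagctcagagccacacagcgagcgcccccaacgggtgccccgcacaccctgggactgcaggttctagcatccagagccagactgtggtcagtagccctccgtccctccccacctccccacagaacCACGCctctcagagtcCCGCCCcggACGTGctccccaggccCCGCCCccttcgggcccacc
Hk2 (chr6:82774455-82774704, minus): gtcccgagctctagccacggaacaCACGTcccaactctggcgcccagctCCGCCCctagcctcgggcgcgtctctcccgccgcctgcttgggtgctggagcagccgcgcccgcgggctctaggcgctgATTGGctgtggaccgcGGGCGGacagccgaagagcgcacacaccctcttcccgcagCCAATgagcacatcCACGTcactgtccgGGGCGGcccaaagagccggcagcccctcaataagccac
Pgk1 (chrX:106186850-106187099, plus): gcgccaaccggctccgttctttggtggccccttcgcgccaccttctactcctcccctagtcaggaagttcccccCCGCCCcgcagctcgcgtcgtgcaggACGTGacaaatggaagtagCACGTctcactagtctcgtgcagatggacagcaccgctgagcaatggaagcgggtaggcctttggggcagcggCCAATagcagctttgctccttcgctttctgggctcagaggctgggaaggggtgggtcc
Ldha (chr7:46845554-46845803, plus): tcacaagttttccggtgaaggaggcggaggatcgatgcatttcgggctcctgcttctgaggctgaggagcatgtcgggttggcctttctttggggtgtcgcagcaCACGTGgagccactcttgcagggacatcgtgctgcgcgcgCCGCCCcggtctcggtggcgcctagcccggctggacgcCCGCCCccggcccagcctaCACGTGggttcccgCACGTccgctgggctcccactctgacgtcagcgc
Aldoa, inner start (chr7:126799255-126799354, minus): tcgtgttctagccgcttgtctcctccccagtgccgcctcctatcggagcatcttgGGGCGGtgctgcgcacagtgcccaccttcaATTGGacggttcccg
Gapdh (chr6:125165774-125165873, minus): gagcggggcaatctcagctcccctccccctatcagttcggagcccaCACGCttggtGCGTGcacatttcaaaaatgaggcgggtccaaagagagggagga

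Slc2a1 and Pgk1 are shown because their peaks lay on the printed bases in every list. At Slc2a1 the intervals ran from 14 bp (Omni-ATAC, 5000 cells) to 696 bp (Omni-ATAC, 50000 cells), and those of the 5 low-input lists measured 223 to 362 bp around the start. The ACGTG at -36 to -32, counted from the start, lay inside the interval in 7 of 8 lists. At Pgk1 the interval ended upstream of the start in 6 of 8 lists, as from -301 to -48 in the low-input list from 10000 cells of experiment 2. In the Omni-ATAC lists from 10000 and 50000 cells it ran over the start, to 65 and 83 bp. It measured 41 bp in the low-input list from 10000 cells of experiment 1 and 195 to 452 bp in the other 7. Both ACGTG cores, at -150 and -131, lay inside it in 7 of 8 lists, as did the CCAAT at -58.

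Hk2 is shown for a promoter with a peak near the start in every list, 9 bp in 2 of them and 317 bp at the widest. A further group of intervals lay 819 to 1510 bp into the gene in 7 of 8 lists, the Omni-ATAC list from 5000 cells being the exception. The ACGTG at -52 lay inside an interval in 4 of 8 lists and that at -226 in 2. Eno1 had an interval of 125 bp in the Omni-ATAC list from 5000 cells and 285 to 417 bp in the other 7. At Pkm a pair of separate intervals flanked or touched the start in 3 lists, 17 and 19 bp wide in the low-input list from 10000 cells of experiment 1. The other 5 lists had 1 interval over the start, of 379 to 603 bp. This is the Pkm start in the count table. RefSeq holds Pkm starts 208 and 859 bp inside the gene, and 3 of 8 lists had an interval over one of those.

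Ldha is shown for its contrast of counts and peaks. It had 47799 to 87362 counts in the mRNA libraries. Its peaks within 1000 bp were 9 bp wide in both low-input lists that had one, at -87 to -79 (10000 cells, experiment 1) and at 32 to 40 (20000 cells, experiment 2). Only the Omni-ATAC list from 50000 cells, the longest with 95457 peaks, had a wide one, 189 bp from -139 to 49. It covered the CACGTG at -48 and the ACGTG at -34, and the CACGTG at -145 lay outside every interval.

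Aldoa and Gapdh are shown because their main peaks lay away from the start in the count table. For Aldoa RefSeq holds further starts 1193 and 1269 bp inside the gene, and 7 of 8 lists had an interval within 1000 bp of one of the starts, against 2 of 8 for the table's start. The intervals of the experiment 1 list from 20000 cells and of the low-input list from 5000 cells were the same 148 bp, from 1153 to 1300 bp. The CCAAT match at -15 before the inner start, read as ATTGG on the printed strand, lay inside the interval in 5 of 8 lists. For Gapdh the RefSeq start lies 694 bp inside the table's gene, and the main interval in the 8 lists lay between 559 and 907 bp. A further narrow interval, of 9 to 37 bp, lay just before the table's start in 3 lists. The main interval measured 14 and 52 bp in experiment 1 and 130, 184 and 295 bp in experiment 2 (5000, 10000 and 20000 cells). Over all intervals of these lists the median width was 14 and 18 bp in experiment 1 and 14, 20 and 62 bp in experiment 2. The part of list length and width was not tested.

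Tpi1, the gene called between experiments, lacked a peak in 4 of 5 low-input lists. It had one in the list from 20000 cells of experiment 2 (122 bp, 11 to 132 bp from the table's start), and in the Omni-ATAC lists from 10000 and 50000 cells. That low-input list is the longest of its protocol, with 49508 peaks against 27016 for 20000 cells of experiment 1, and the part of list length was not tested. Gpi1 had a peak of 11 to 71 bp in 3 low-input lists and of 483 bp in the Omni-ATAC list from 50000 cells.

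By list, 7 of the 10 genes had a peak in each list of experiment 1. They were the genes with a peak in every list, plus Ldha with 10000 cells and Gpi1 with 20000 cells. Of all genes 31.1% (10000 cells) and 37.4% (20000 cells) had one, and of the 1517 genes at the level of the 10, 64.1% and 74.2%. In experiment 2 there were 6, 7 and 10 genes with 5000, 10000 and 20000 cells (31.1%, 40.5% and 50.3% of all genes; 65.0%, 79.3% and 91.2% at their level). The Omni-ATAC lists had 6, 7 and 10 genes with 5000, 10000 and 50000 cells (18.6%, 41.5% and 61.1% of all genes; 40.1%, 77.5% and 97.0% at their level). The Omni-ATAC list from 5000 cells was the farthest from the share at that level. Peaks covered 1153 bp around the 10 starts in the low-input list from 5000 cells, which held 18637 peaks, and 395 bp in the Omni-ATAC list from 5000 cells, which held 9097. With 10000 cells the covered length was 628 and 1850 bp in experiments 1 and 2 and 1602 bp with Omni-ATAC.

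**Figure D5:**
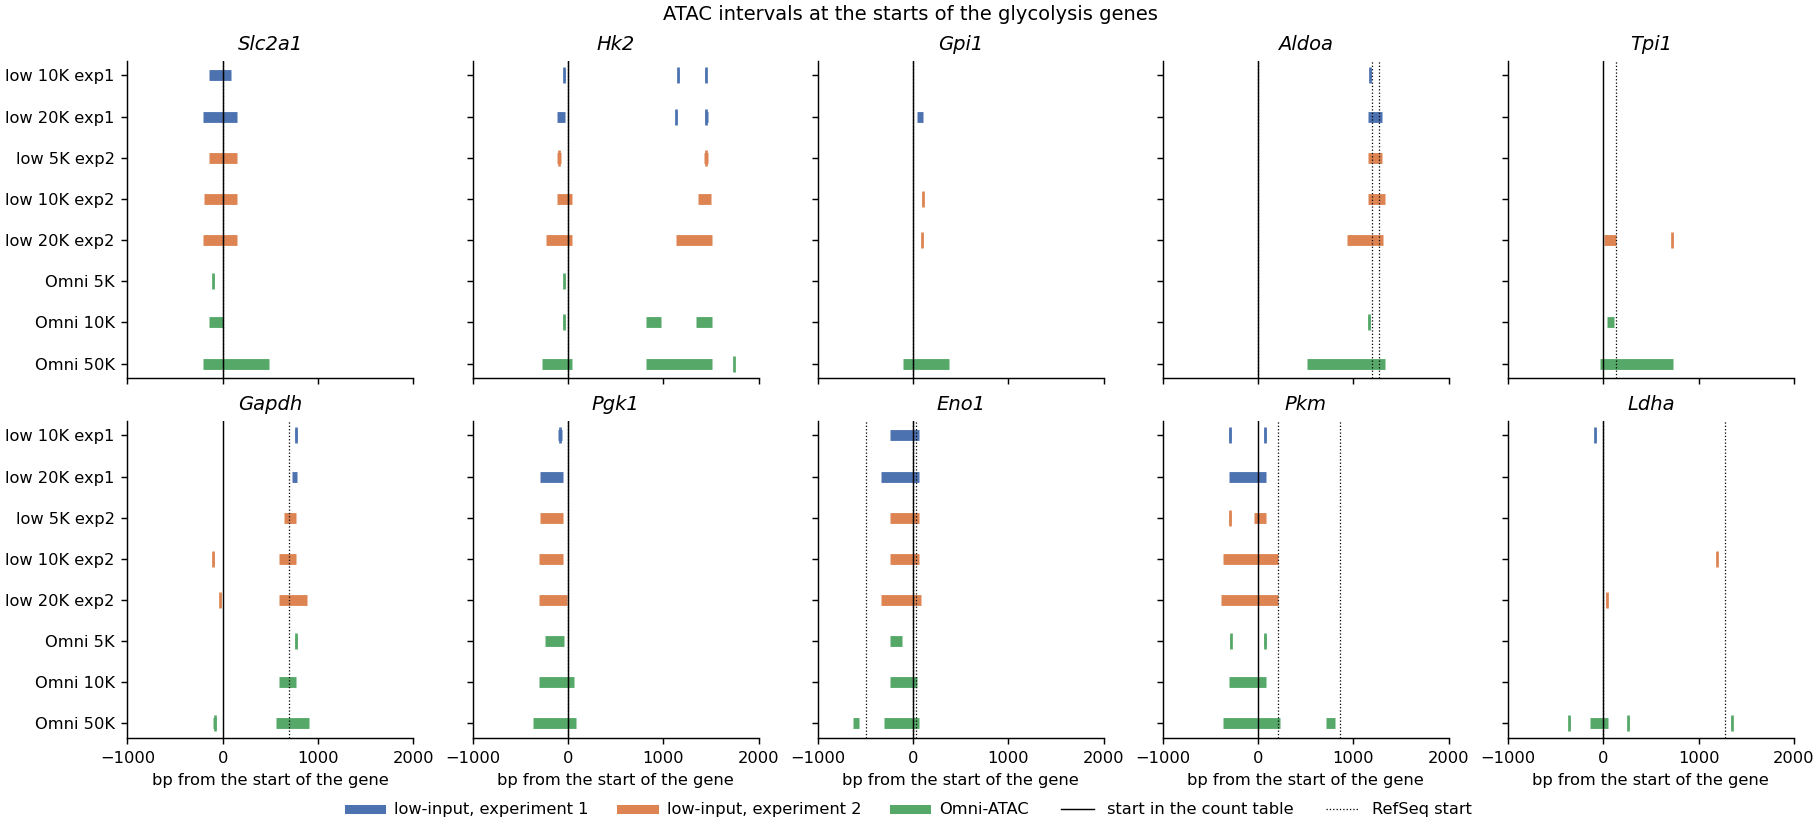
Peak intervals of the 8 ATAC lists (rows) around the start of each gene in the count table (solid line; dotted lines are RefSeq starts), blue and orange for experiments 1 and 2 of the low-input protocol and green for Omni-ATAC; ticks mark intervals under 50 bp. Eno1, Slc2a1 and Pgk1 carry an interval in every row, Ldha has a wide one in the Omni-ATAC row from 50000 cells alone, and the intervals of Aldoa, and the wider ones of Gapdh, lie at or near the inner starts; Gapdh also has narrow ones near the table's start in 3 rows.

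In the 250 bases before the 16 RefSeq starts of the 10 genes, ACGTG occurred at 7 starts (6 genes), against 16.6% of 32851 promoter stretches of that length. GGGCGG, the GC box bound by Sp and KLF factors, occurred at 11 starts (32.7% of all promoters), CCAAT, bound by NF-Y, at 7 (33.8%) and GCGTG at 6 (28.2%). CACGTG occurred at the Ldha start alone (6.02% of all promoters), and TATAAA at none of the 16 (12.4%). Starts of a gene share sequence where they lie close, and base composition was not matched, so these shares describe the letters only.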

How the data were processed

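For the 5 mRNA libraries the authors deposited raw read counts by gene, which are whole numbers; the build is mm10 per the file headers. The submitters' processing notes name cutadapt, STAR 2.5, featureCounts and Subread 1.5.0-p1 beside Bowtie2 2.1.0, Picard, SAMtools 1.3.1, bedtools 2.24.0 and MACS2 2.1.1, with no role or order. Each ATAC library has a deposited list of intervals, with no height, score or p-value; they were not pooled, and the unified list was not used. Strand use, multiple matches and peak thresholds are not given in the sources used here. No column lay outside the mapped libraries.

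CPM were computed as counts scaled to library totals. Experiment and cell number were tested with edgeR 4.0.16 in R 4.3.3 (TMM, filterByExpr, glmQLFit, glmQLFTest) on 4 libraries, with Benjamini-Hochberg adjustment over all genes tested; the 5000 cell library, without a replicate, stayed outside. The experiment number in the labels marks a shared day, per the series' design text, and so pairs libraries: differences between experiments at the 2 cell numbers correlated across 11575 genes with r = 0.517. Pairs of libraries differed by a chi-square per gene of at least 10.7, so none was a duplicate. A count of 0 allows up to 3 counts, 0.147 to 0.219 CPM, covering counting error only. The steps were tested on simulated counts. Of the 24470 genes 24467 were matched by ID to RefSeq (GRCm38.p6), and 10 of 10 members had a promoter sequence. Python 3.11.15, numpy 2.4.6, pandas 2.3.3 and matplotlib 3.10.9 were used.

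The members and lists were chosen with earlier results of these data known. Named genes are the 10 members, every called gene of the pathway lists, and the 3 most alike profiles; isozymes in ratios, Eno1b and marker genes were named outside this rule, with their values known. Ero1l, 1 of the 23 listed HIF genes, was not matched by symbol and is not analysed here. Alternatives were DESeq2 1.42.0, library size alone, RLE factors, a log2 fold change of at least 1, no filter on low counts, only genes averaging 10 CPM or more, a block, all 5 libraries, leaving out each library, promoter distances of 500 and 2500 bp, intervals of at least 50 bp, and the 9097 widest intervals. The use of RefSeq starts was added after the data were seen.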

Additional observations from a re-analysis of the deposited data

Results flagged for a closer look

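Some log2 ratios of CPM + 1 went opposite ways at the levels of the other factor. Each ratio rests on 1 pair of libraries, so the difference was not tested. Between experiments, Eno1 was -0.203 at 10000 cells and 0.236 at 20000 cells, and Pkm was -0.176 and 0.15; over 11575 genes the sign was the same at both cell numbers in 67%. Between 20000 and 10000 cells, Gapdh was -0.399 in experiment 1 and 0.063 in experiment 2, and Ldha -0.131 and 0.201. In the same order Pgk1 was -0.028 and 0.187, Gpi1 -0.092 and 0.155, and Hk2 0.02 and -0.023. Both Hk2 ratios were small, and the share of all genes with opposite signs was not counted between cell numbers. The experiment 2 library from 20000 cells, which had the highest CPM of 8 of the 10 genes, entered each experiment 2 value and each value at 20000 cells.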

How the results depend on the processing

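Between experiments the members called were 2 of 10 with all 5 libraries (11.4% of all genes tested) or with genes averaging 10 CPM or more (21.9%). They were 3 with no filter on low counts (8.54%) and 0 when a log2 fold change of at least 1 was also required (4.89%). They were 1 with RLE factors, library size alone, DESeq2 and cell number as a block (12.5%, 11.3%, 10.6% and 14.1% of all genes). Between cell numbers 0 were called under each alternative run, the replicate block on the experiment among them. The change of Pkm between experiments, 0.00, turned to -0.011 with all 5 libraries, -0.012 with cell number as a block and -0.009 among genes averaging 10 CPM or more; the cause was not tested. With 1 library left out it ran from -0.20 to 0.20 for Pkm and from -0.22 to 0.27 for Eno1. Between cell numbers such ranges crossed 0 for Gapdh (-0.47 to 0.11), Gpi1 (-0.12 to 0.17), Hk2 (-0.13 to 0.10), Ldha (-0.18 to 0.24), Pgk1 (-0.10 to 0.24), Slc2a1 (-0.074 to 0.184) and Tpi1 (-0.27 to 0.50). Over all genes the calls between experiments, 1567, were 612 with a log2 fold change of at least 1 and 803 to 1817 with 1 library left out, and those between cell numbers, 0, were 4 with the replicate block and 2 with no filter. A lone library in such a fit is assumed to vary like the others. The mean number of members with a peak per list, 7.5, was 5.63 to 8.25 under the alternatives, among them 8.25 with any RefSeq start. Peak lists give no depth, so absent peaks have no limit of detection.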
